A study of Mus musculus with 2 samples.

Results

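The Dlx rows of a mouse teratoma expression table were compared between teratomas of E14 and E14-Sox2TA/WT cells, with 1 library each. Members were the 8 of 45777 gene rows with the symbols Dlx1, Dlx2, Dlx3, Dlx4, Dlx5, Dlx6, Dlx1as and Dlx6os1. They comprise the 6 protein-coding Dlx genes and 2 transcripts made from the opposite strand at these loci. A further 2 rows begin with Dlx, Dlx4os and Dlx6os2, and are given beside them. The family was chosen by the ratio of its TPM (reads per kilobase of transcript, scaled to a fixed sum per library) between these same 2 libraries, so every ratio below is a description and none is tested.

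E14 is a mouse embryonic stem cell (ESC) line, and a teratoma is a tumour of mixed tissues that ESCs form in a host. The E14 group was wild type, and E14-Sox2TA/WT carried the threonine to alanine change at residue 258 of Sox2, a transcription factor of pluripotent and neural progenitor cells, on 1 allele. The edited cells were obtained with CRISPR-Cas9 as clones grown from single cells. Both kinds of cell were placed under the skin of BALB/c-nu mice, which lack a thymus, and tumours were taken after 14 days. The age of the hosts is not given, and of the 3 mice per group it is not stated how many tumours entered the library. With 1 library per group, the difference between genotypes, clones, tumours and pieces of tumour cannot be told apart.

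The libraries held 50529171 reads on genes for E14 and 49030281 for E14-Sox2TA/WT. Levels are given as TPM, and each interval is a 95% Clopper-Pearson interval that covers counting error only. Neural (Tubb3), cartilage (Col2a1), muscle (Myh3), endodermal (Afp), epithelial (Krt8, Epcam), macrophage (Lyz2) and red cell (Hbb-bs) genes were all read in the E14-Sox2TA/WT library. The E14 library also had reads of all of them, with Afp, the fetal liver and yolk sac protein, at 0.614 TPM against 151 TPM. Sox2 had a TPM of 246 in E14 and 130 in E14-Sox2TA/WT, 1.89-fold lower (interval 1.84 to 1.94). The 4 Y-linked genes examined had 5453 reads in E14 and 0 in E14-Sox2TA/WT, and the median of the 926 expressed genes of chromosome 8 was lower by 0.43 on the log2 scale relative to all genes. The part of these features in the values below was not tested, and the Dlx genes lie on chromosomes 2, 6 and 11, whose medians differed from that of all genes by -0.048, 0.055 and -0.038.

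Dlx proteins are homeodomain transcription factors, related to Distal-less of flies, that bind DNA at sites with an AT-rich core. Their genes lie as convergently transcribed pairs, Dlx1 with Dlx2, Dlx5 with Dlx6 and Dlx3 with Dlx4, and the members of a pair share enhancers. In the embryonic forebrain Dlx1, Dlx2, Dlx5 and Dlx6 are active in the ganglionic eminences, where they drive the differentiation and migration of GABAergic interneurons. Dlx5 and Dlx6 also pattern the lower jaw and act in developing bone, and Dlx3 acts in epidermis, hair, placenta and bone.

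The 6 proteins are related most closely in the homeodomain, and reads of close paralogs can be hard to assign. For this reason the stretch of coding sequence around the recognition helix is shown for each gene, read from the GENCODE transcripts on GRCm38, the build named mm10 in the deposited table. Each stretch has 90 bases and crosses the junction of exons 2 and 3. Capitals mark the 51 positions at which all 6 genes have the same base.
Dlx1: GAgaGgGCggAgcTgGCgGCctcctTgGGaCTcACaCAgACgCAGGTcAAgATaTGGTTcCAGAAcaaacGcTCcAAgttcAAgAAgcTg
Dlx2: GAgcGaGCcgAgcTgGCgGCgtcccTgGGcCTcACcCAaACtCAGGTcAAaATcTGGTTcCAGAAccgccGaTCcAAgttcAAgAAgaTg
Dlx3: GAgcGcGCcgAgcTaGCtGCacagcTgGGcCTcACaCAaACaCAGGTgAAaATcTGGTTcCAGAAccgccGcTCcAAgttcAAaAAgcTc
Dlx4: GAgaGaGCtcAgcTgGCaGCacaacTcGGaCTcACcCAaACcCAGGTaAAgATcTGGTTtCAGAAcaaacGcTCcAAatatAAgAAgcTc
Dlx5: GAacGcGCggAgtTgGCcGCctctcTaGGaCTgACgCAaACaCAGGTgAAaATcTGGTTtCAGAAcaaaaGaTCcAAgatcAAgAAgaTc
Dlx6: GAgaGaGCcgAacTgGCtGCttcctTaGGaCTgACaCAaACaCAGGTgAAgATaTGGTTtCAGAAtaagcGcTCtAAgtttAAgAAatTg
On GRCm38 these bases lie within chr2:71531112-71532308 for Dlx1 (plus strand) and chr2:71544880-71545428 for Dlx2 (minus strand), each range holding an intron. They lie within chr11:95121854-95123453 for Dlx3 (plus strand) and chr11:95141425-95141833 for Dlx4 (minus strand). For Dlx5 the range is chr6:6878444-6879570 (minus strand) and for Dlx6 chr6:6865227-6867085 (plus strand). Identity between 2 genes ran from 72.2% for Dlx3 with Dlx6 to 84.4% for Dlx2 with Dlx3, and was 82.2% for Dlx1 with Dlx2 and 74.4% for Dlx5 with Dlx6. The paralogs thus differed at many bases even within the homeobox. Over whole transcripts the longest run of identical bases between any 2 of the 6 genes was 23 nt, and 0 stretches of 50 nt were shared.

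Before the values, the direction of the family is given in counts. A total of 6 of the 8 members reached 10 TPM, each through the E14 library alone. All 6 of those that passed, Dlx1, Dlx2, Dlx5, Dlx6, Dlx1as and Dlx6os1, were more than 2-fold lower in E14-Sox2TA/WT, as were 18.7% of the 11578 genes that passed the same minimum. The same 6 were also more than 20-fold lower in TPM, as were 0.285% of those genes, but this limit was chosen after the data were seen. Dlx5 did not pass it with FPKM (19.3-fold) or with reads per library total (18.9-fold), which left 5 members. Because this contrast chose the family and these members passed only where they were high, nothing is read from the counts. Dlx3 and Dlx4 stayed below the minimum in both libraries. With all 8 members, the median log2 ratio of E14-Sox2TA/WT to E14, with 1 added to each TPM, was -4.15, beside -0.18 for the 11578 genes. The filters of these medians differ, as Dlx3 and Dlx4 did not reach the minimum that the 11578 genes passed.

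**Figure D1:**
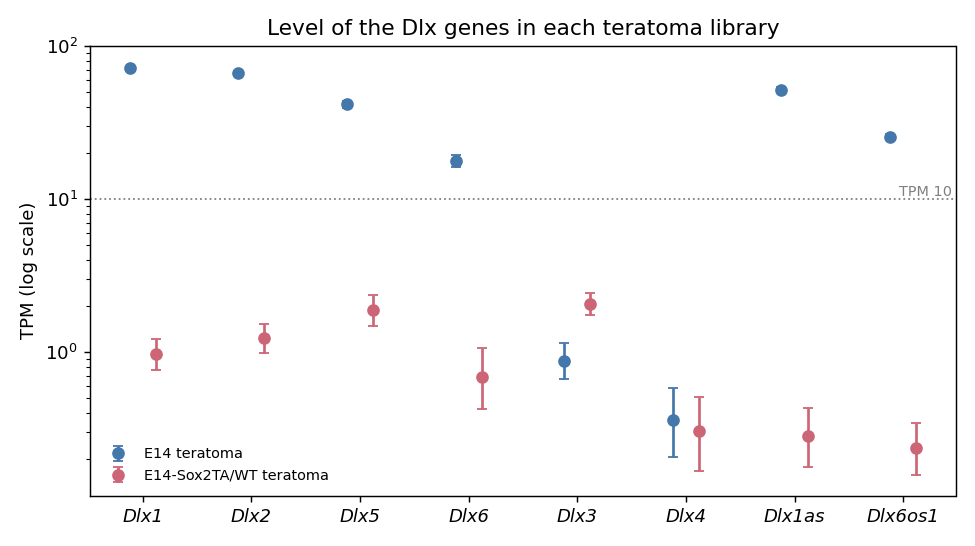
TPM of each of the 8 Dlx members on a log axis in the E14 (blue) and E14-Sox2TA/WT (red) teratoma libraries, 1 library each. Bars are 95% counting intervals. Dlx1, Dlx2, Dlx5, Dlx6 and both antisense members stand above a TPM of 10 in E14 and below 2 in E14-Sox2TA/WT, while Dlx3 is higher in E14-Sox2TA/WT and the intervals of Dlx4 overlap.

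The pair on chromosome 2 had the highest levels in E14. Dlx1 (gene ID 13390, chr2:71528113-71533981, plus strand), which is needed for the survival of interneurons, had 6391 reads in E14 and 73 in E14-Sox2TA/WT. Its TPM was 71.9 against 0.969, 74.3-fold lower (interval 59.0 to 94.9). Dlx2 (gene ID 13392, chr2:71543408-71546754, minus strand), which acts together with Dlx1 in progenitors of the ganglionic eminences and in neural crest of the jaws, had 3986 and 83 reads. Its TPM was 67.0 against 1.24, 54.2-fold lower (interval 43.6 to 68.2). Both genes were thus among the most abundant members in E14 and stood near 1 TPM in E14-Sox2TA/WT, and the intervals of their folds overlap in TPM. By log2 ratio they were the 5th and 6th lowest of the 11578 genes. The folds depended on the scale. With reads divided by the library total only, Dlx1 was 85.0-fold lower (interval 67.5 to 109) and Dlx2 46.6-fold (37.5 to 58.6), and on that scale the intervals do not overlap. With FPKM the folds were 64.7 and 47.2. Reads per unit of FPKM, after division by library total, were 1.31 times higher in E14 than in E14-Sox2TA/WT for Dlx1 and 0.987 times for Dlx2.

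The pair on chromosome 6 was also lower in E14-Sox2TA/WT. Dlx5 (gene ID 13395, chr6:6877801-6882068, minus strand), a regulator of GABAergic neurons, jaw and osteoblasts, had 1402 and 72 reads. Its TPM was 41.6 in E14 and 1.88 in E14-Sox2TA/WT, 22.1-fold lower (interval 17.4 to 28.4). Dlx6 (gene ID 13396, chr6:6863334-6867970, plus strand), its partner in the jaw and limb, had 460 and 20 reads. Its TPM was 17.8 against 0.691, 25.8-fold lower (interval 16.5 to 42.7). These were the smallest folds of the 6 members that passed the minimum, and the interval of Dlx5 lies below those of Dlx1 and Dlx2. The interval of Dlx6 lies below those of Dlx1 and Dlx2 as well.

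The pair on chromosome 11 was low in both libraries. Dlx3 (gene ID 13393, chr11:95120117-95125296, plus strand), which acts in the differentiation of epidermis and placenta, had 56 reads in E14 and 145 in E14-Sox2TA/WT. Its TPM was 0.881 against 2.06, 2.34-fold higher in E14-Sox2TA/WT (interval 1.71 to 3.24). It was the only one of the 8 members with a higher TPM there. Among the 18558 genes that reached 1 TPM in either library, 19.3% were more than 2-fold higher and 18.9% more than 2-fold lower. Dlx4 (gene ID 13394, chr11:95140447-95146294, minus strand), known from placenta and blood cells, had 16 and 14 reads. Its TPM was 0.361 against 0.305, a ratio of 0.845 (interval 0.382 to 1.85), so no difference was detectable at this depth.

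**Figure D2:**
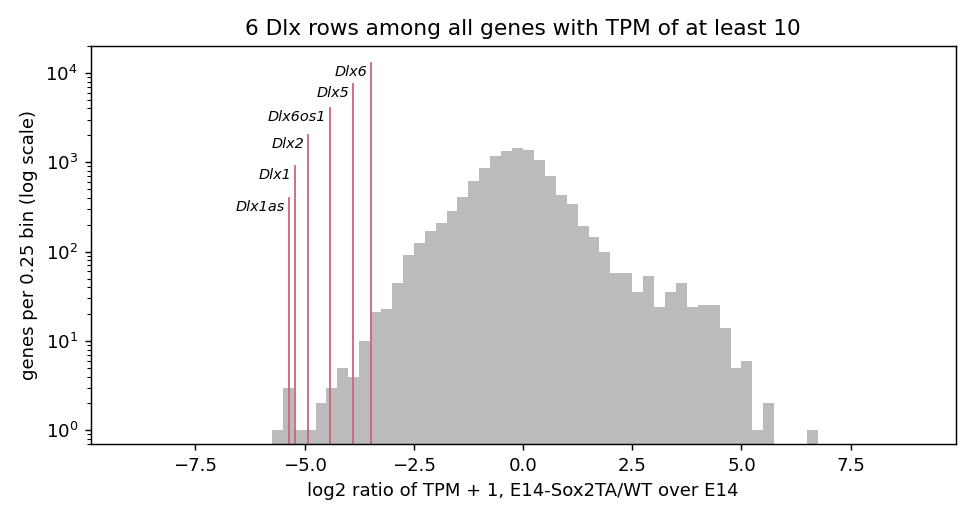
Histogram of the log2 ratio of TPM + 1 (E14-Sox2TA/WT over E14) for the 11578 genes that reached 10 TPM in either library, in bins of 0.25 with a log axis for genes per bin. Red lines mark the 6 Dlx members that passed, from -5.37 for Dlx1as to -3.48 for Dlx6, the lowest being 3rd and the highest 32nd from the low end.

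Both antisense members had larger folds than the coding genes beside them. Dlx1as (gene ID 111970, chr2:71530638-71537891, minus strand) runs from the gap between Dlx1 and Dlx2 into the 3' part of Dlx1. It had 3498 reads in E14 and 22 in E14-Sox2TA/WT, and a TPM of 52.0 against 0.284, 183-fold lower (interval 121 to 293). Dlx6os1 (gene ID 320038, chr6:6820543-6871627, minus strand), the gene of the Evf2 noncoding RNA that is transcribed from a Dlx5/Dlx6 enhancer, had 2573 and 27 reads. Its TPM was 25.5 against 0.238, 107-fold lower (interval 73.4 to 163). In TPM the interval of Dlx1as lies above that of Dlx1, and the interval of Dlx6os1 above those of Dlx5 and Dlx6. With reads per library total the fold of Dlx1as was 154 (interval 102 to 247), which overlaps that of Dlx1. That of Dlx6os1 was 92.5 (63.4 to 141), still above those of Dlx5 and Dlx6.

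The ratio of each antisense transcript to its coding partner shows the same within a library, on the TPM scale. Dlx1as stood at 0.723 of the TPM of Dlx1 in E14 (interval 0.694 to 0.754) and at 0.293 in E14-Sox2TA/WT (0.173 to 0.478). Dlx6os1 stood at 1.43 times the TPM of Dlx6 in E14 (1.29 to 1.58) and at 0.344 in E14-Sox2TA/WT (0.186 to 0.648). In both cases the intervals of the libraries do not overlap. Since strand use in counting is not stated, reads in shared exons cannot be assigned: 335 bases, or 20.6% of the exons of Dlx1as in GENCODE, are also exon of Dlx1. Dlx6os1 spans all 4637 bases of Dlx6, but 0 bases of their exons overlap. Adding the reads of antisense and coding gene, scaled by library total, gave a 101-fold lower level for Dlx1as with Dlx1 and a 62.6-fold lower level for Dlx6os1 with Dlx6. The other 2 antisense rows were near the limit of detection. Dlx6os2, within Dlx6, had 18 reads in E14 and 0 in E14-Sox2TA/WT, at least 5.82-fold lower per library total against a floor of 3 reads in that library. Dlx4os, which overlaps Dlx4 by 1242 bases on the opposite strand, had 8 and 14 reads, a TPM ratio of 1.52 (interval 0.593 to 4.17). Exons share 104 bases between Dlx6os2 and Dlx6 and 79 bases between Dlx4os and Dlx4, and reads there cannot be assigned either.

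The order of the coding genes differed between the libraries. In E14 the summed TPM of the 6 coding genes was 199.6, of which Dlx1 made up 36.0%, Dlx2 33.6%, Dlx5 20.8% and Dlx6 8.94%. Dlx3 and Dlx4 together held 0.622%. In E14-Sox2TA/WT the sum was 7.14, 27.9-fold lower. There Dlx3 held 28.8%, Dlx5 26.4%, Dlx2 17.3%, Dlx1 13.6%, Dlx6 9.67% and Dlx4 4.28%. The share of Dlx3 (interval 25.1% to 32.8%) overlaps that of Dlx5 (21% to 32.4%), so the order of these genes is not separated by counting error. Dlx3 lies above Dlx2 (14.1% to 20.9%) and Dlx1 (10.8% to 16.6%).

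The ratio of levels within a pair is given next. The TPM of Dlx1 was 1.07 times that of Dlx2 in E14 (interval 1.03 to 1.12) and 0.784 times in E14-Sox2TA/WT (0.564 to 1.09). These intervals overlap in TPM. Dlx5 had 2.33 times the TPM of Dlx6 in E14 (2.1 to 2.6) and 2.73 times in E14-Sox2TA/WT (1.64 to 4.73), again with overlap. Dlx3 had 2.44 times the TPM of Dlx4 in E14 (1.38 to 4.55) and 6.74 times in E14-Sox2TA/WT (3.89 to 12.6), also with overlap. Between pairs, Dlx1 had 1.73 times the TPM of Dlx5 in E14 (1.63 to 1.83) and 0.514 times in E14-Sox2TA/WT (0.366 to 0.723), so their order turned. The order of Dlx2 and Dlx6 did not: Dlx2 had 3.75 times the TPM of Dlx6 in E14 (3.41 to 4.14) and 1.79 times in E14-Sox2TA/WT (1.09 to 3.08).

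**Figure D3:**
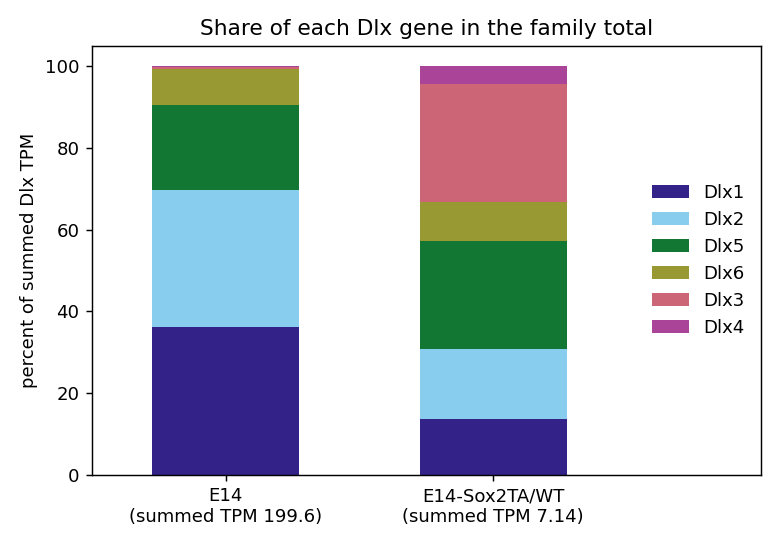
Stacked bars of the percent of the summed TPM of the 6 coding Dlx genes held by each gene in the 2 libraries. Dlx1 and Dlx2 fill most of the E14 bar (sum 199.6 TPM), while Dlx3, at 0.441% in E14, and Dlx5 hold the largest shares of the much smaller E14-Sox2TA/WT sum (7.14 TPM).

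Window sequences before annotated starts were examined where the RefSeq table for GRCm38.p6 held one. Of the 6 windows at Dlx rows, 2, both of Dlx6os1, hold the homeodomain core and those of Dlx1, Dlx2, Dlx6os2 and Dlx4os do not. The Dlx6os1 windows are shown for this match, chosen after it was seen, with Dlx2 as an example without it. Each has the 250 bases before a start, and capitals mark the letters TAATTA, the homeodomain core, which reads the same on both strands.
Dlx2 (chr2:71546755-71547004, minus strand): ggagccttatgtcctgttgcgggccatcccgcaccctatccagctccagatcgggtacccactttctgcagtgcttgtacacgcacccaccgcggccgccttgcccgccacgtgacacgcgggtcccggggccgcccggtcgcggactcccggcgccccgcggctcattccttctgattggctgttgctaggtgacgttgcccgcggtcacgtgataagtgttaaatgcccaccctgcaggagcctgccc
Dlx6os1, first start (chr6:6869534-6869783, minus strand): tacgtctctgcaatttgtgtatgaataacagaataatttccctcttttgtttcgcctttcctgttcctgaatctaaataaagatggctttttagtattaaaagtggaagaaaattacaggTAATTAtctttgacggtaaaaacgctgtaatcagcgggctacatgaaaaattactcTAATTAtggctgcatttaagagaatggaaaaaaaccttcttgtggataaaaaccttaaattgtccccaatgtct
Dlx6os1, second start (chr6:6861684-6861933, minus strand): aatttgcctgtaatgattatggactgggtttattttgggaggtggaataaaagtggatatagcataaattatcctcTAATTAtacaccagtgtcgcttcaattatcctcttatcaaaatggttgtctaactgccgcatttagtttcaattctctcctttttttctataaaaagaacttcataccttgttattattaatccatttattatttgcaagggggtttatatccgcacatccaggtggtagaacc
The first start of Dlx6os1 lies 2094 bases inside the annotated gene, in the gap between Dlx6 and Dlx5, and its window holds 2 copies of TAATTA. The second lies 9944 bases inside the gene and its window holds 1 copy. The Dlx2 window holds 0. The counts are the same in windows of 300 bases, which add 50 bases after the start. Of 32851 RefSeq windows of 300 bases, 5.29% hold TAATTA at least once and 0.490% at least 2 times. GC content was 66.4% in the Dlx2 window, and 33.2% and 34% in the Dlx6os1 windows, beside a median of 52.7% over all windows. The letters ACAATG, a Sox core searched on both strands and held by 12.6% of all windows, were in none of the Dlx windows. CAGCTG, an E-box held by 16.3% of all windows, was once in the first Dlx6os1 window of 300 bases, in the part after the start that is not printed. These matches are of letters only.

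The nearest coding genes on each side of a pair had ratios far from those of the Dlx1/Dlx2 and Dlx5/Dlx6 pairs. Beside Dlx1 and Dlx2, Metap1d, a mitochondrial methionine aminopeptidase 2.919 kb away, had a TPM of 53.2 in E14 and 32.3 in E14-Sox2TA/WT, 1.65-fold lower (interval 1.54 to 1.76). Hat1, a histone acetyltransferase, had 81.7 and 241 TPM, 2.95-fold higher (2.84 to 3.08). On the other side the laminin receptor subunit Itga6 (33.0 and 38.7 TPM) and the kinase Pdk1 (38.1 and 40.4 TPM) were slightly higher in E14-Sox2TA/WT. Beside Dlx5 and Dlx6, the proteasome subunit Sem1 had 581 and 557 TPM, and Sdhaf3, an assembly factor of succinate dehydrogenase, 20.9 and 15.8 TPM. Slc25a13, a mitochondrial carrier, was 2.62-fold higher (2.43 to 2.83), and Tac1, the substance P precursor, had 3.81 and 1.98 TPM.

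Beside Dlx3 and Dlx4, the integrin Itga3 had 13.1 and 18.5 TPM and the acetyltransferase Kat7 46.4 and 47.3 TPM. Pdk2 was 3.50-fold lower (3.16 to 3.88), and Tac4 had 0 and 3 reads. Within 5 Mb of each pair the median log2 ratio of the other genes that reached 1 TPM was 0.27 for Dlx1/Dlx2 (77 genes, 29 lower), -0.030 for Dlx5/Dlx6 (39 genes, 21 lower) and 0.11 for Dlx3/Dlx4 (150 genes, 66 lower). The lowest of them, named after their values were seen, were Sp9 (-3.51), a regulator of interneurons, Nxph1 (-2.43) and Thra (-2.92). Gad1, the enzyme that makes GABA, lies within 1 Mb of Dlx1/Dlx2 and had a log2 ratio of -3.35.

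**Figure D4:**
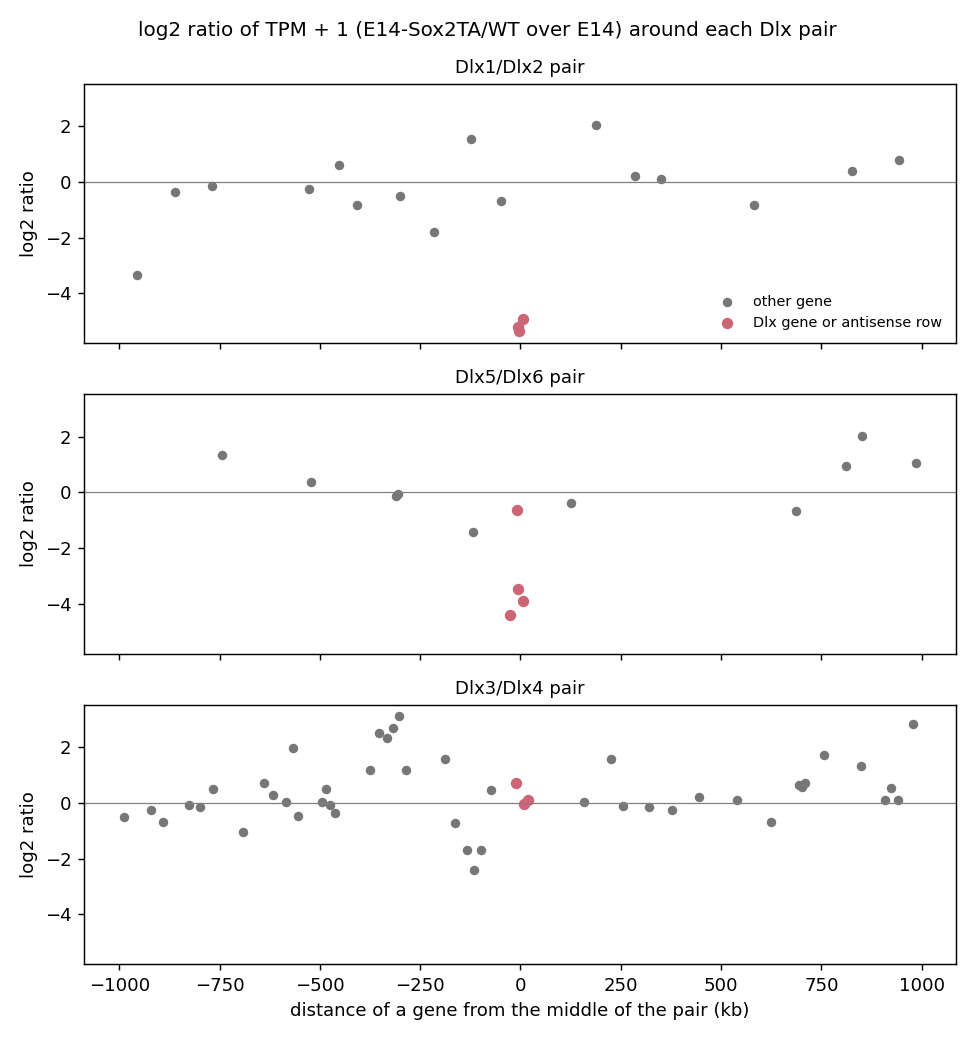
The log2 ratio of TPM + 1 (E14-Sox2TA/WT over E14) of genes around each Dlx pair against distance from the middle of the pair in kb, 1 panel per pair. Red points are Dlx rows and grey points other genes; the 6 abundant Dlx members at the Dlx1/Dlx2 and Dlx5/Dlx6 pairs lie below all other genes shown, while Dlx6os2 and the rows at Dlx3/Dlx4 lie nearer 0.

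Genes that work with Dlx in the ventral forebrain were also lower in E14-Sox2TA/WT. Of 9 regulators placed upstream of Dlx1 and Dlx2, 7 had a lower and 2 a higher ratio, with a median log2 ratio of -3.03, beside -0.058 for the 18558 genes that reached 1 TPM. Past the 2-fold rule, 6 of the 7 that reached 10 TPM were lower and 0 higher, beside 18.7% lower and 10.8% higher of all 11578 genes. Of those 7, 5 reached 10 TPM in E14 alone. Nkx2-1, which specifies the medial ganglionic eminence, had 74.2 TPM in E14 and 0.789 in E14-Sox2TA/WT, and Six3, an anterior forebrain factor, 23.9 and 0.267 TPM. The ventral signal Shh, in contrast, had 45.6 and 59.5 TPM.

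Of 22 genes of the ventral forebrain and GABAergic neurons, 21 were lower and 1 higher, with a median of -2.56. Of the 18 that reached 10 TPM, 15 were more than 2-fold lower and 0 higher, beside the same 18.7% and 10.8%, and 11 of the 18 reached 10 TPM in E14 alone. The summed TPM of all 22 was 697 in E14 and 141 in E14-Sox2TA/WT. Sst, the neuropeptide somatostatin of an interneuron class, had 86.6 and 17.8 TPM. Only 1 of these 22 genes, Nkx2-1, had a lower log2 ratio than Dlx1, Dlx2, Dlx1as or Dlx6os1, against 3 for Dlx5 and 6 for Dlx6. This ranking depends on the 1 added to each TPM. Without it, Six3 was 89.5-fold lower, more than Dlx1 and Dlx2, but its interval (61.3 to 136) overlaps theirs. Lhx8 (31.7-fold), Sp9 (30.2) and Lhx6 (28.8), named after their values were seen, then passed Dlx5, with intervals that overlap its own. Vax1 (27.6), named in the same way, was lower than Dlx5 by both measures. Dlx1as (183-fold, interval 121 to 293) and Dlx6os1 (107-fold, 73.4 to 163) then had larger folds than all 22 genes. Both intervals overlap those of Nkx2-1 (94.0-fold, 73.0 to 123) and Six3. Several genes stand in both lists, so they are not independent of each other.

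Neuronal genes in general and dorsal forebrain genes were lower too, by less in the median log2 ratio. This order depends on the measure. The summed TPM was 2691 in E14 and 405 in E14-Sox2TA/WT for all neurons, and 170 and 37.6 for the 17 dorsal genes. By that sum, the list of all neurons fell by more than the ventral forebrain list. Tubb3 alone, however, held 1722 of the 2691 TPM in E14 and 170 of the 405 in E14-Sox2TA/WT, so this comparison leans on 1 gene. All 9 genes of all neurons were lower, each past 2-fold, with a median of -2.23, and 8 of the 9 reached 10 TPM in both libraries. Tubb3, the neuronal tubulin, had 1722 TPM in E14 and 170 in E14-Sox2TA/WT, Stmn2 451 and 121, Map2 133 and 28.6, and Dcx, of migrating neurons, 92.9 and 13.1. Of 17 dorsal forebrain genes 14 reached 1 TPM, of which 12 were lower, with a median of -1.61. All 5 that reached 10 TPM did so in E14 alone and were more than 2-fold lower, beside 18.7% of all genes, with Lhx2 at 50.2 and 1.63 TPM and Neurog2, the cortical proneural factor, at 26.3 and 6.65 TPM. In bulk tissue, fewer cells of a type and less RNA per cell cannot be told apart.

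The Dlx levels were also set against 1 neuronal transcript. The TPM of Dlx1 was 4.18% of that of Tubb3 in E14 and 0.569% in E14-Sox2TA/WT, 7.35-fold lower. The same quantity was 5.36-fold lower for Dlx2, 2.18-fold for Dlx5 and 2.56-fold for Dlx6. For the antisense members it was 18.1-fold for Dlx1as and 10.6-fold for Dlx6os1. Per TPM of Gad1 the folds were 5.83 for Dlx1, 4.26 for Dlx2, 1.74 for Dlx5 and 2.03 for Dlx6, and 14.4 for Dlx1as and 8.40 for Dlx6os1. Per TPM of Tubb3, Dlx3 was 23.7-fold and Dlx4 8.55-fold higher in E14-Sox2TA/WT, and per TPM of Gad1 29.8-fold and 10.8-fold higher. Tubb3 was itself 10.1-fold and Gad1 12.7-fold lower, so any gene with an unchanged TPM is higher by this measure. Dlx4, with 16 and 14 reads, had no detectable difference in TPM, so nothing is read from its values here. Both reference genes were chosen after the data were seen, and Tubb3 lies on chromosome 8.

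Gene lists of tissues in which Dlx5, Dlx6 and Dlx3 are also known to act had medians above 0. Of 14 cartilage and bone genes 12 reached 1 TPM, 11 higher and 1 lower, with a median of 1.68 and a summed TPM of 167 in E14 and 537 in E14-Sox2TA/WT. Past the 2-fold rule 3 of 5 were higher and 1 lower, beside 10.8% higher and 18.7% lower of all genes. Of those 5, 1 reached 10 TPM in E14-Sox2TA/WT alone. The bone matrix gene Spp1 had 36.7 TPM in E14 and 340 in E14-Sox2TA/WT, 9.25-fold higher (interval 8.73 to 9.81). Ibsp, bone sialoprotein, had 0.659 and 12.2 TPM, 18.5-fold higher (12.9 to 27.5). The phosphatase Alpl was the third, with 23.6 and 62.2 TPM, while the cartilage collagen Col2a1 had 58.0 and 74.8 TPM. The cartilage regulator Sox9 was the lower 1, with 44.1 and 16.9 TPM, and is named after its value was seen. Of 15 craniofacial and limb mesenchyme genes 13 reached 1 TPM. Of the 5 that reached 10 TPM, 3 did so in E14-Sox2TA/WT alone, and 0 of 5 passed 2-fold. All 13 were higher, with a median of 0.74. Among them Twist1, a mesenchymal factor, had 15.7 and 27.0 TPM, Msx1, a partner of Dlx5 in the jaw, 9.19 and 15.8, Prrx2 6.39 and 12.6, and Ednra, the endothelin receptor upstream of Dlx5 and Dlx6 in the jaw, 18.3 and 22.4.

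Of 12 genes of stratified epithelium, where Dlx3 acts, 10 reached 1 TPM, 6 higher and 4 lower, with a median of 0.21. The basal keratins Krt5 (25.1 and 127 TPM) and Krt14 (8.09 and 58.9 TPM) were the only 2 that reached 10 TPM. Both were more than 2-fold higher, beside 10.8% higher and 18.7% lower of all genes, but Krt14 reached 10 TPM in E14-Sox2TA/WT alone. Below that minimum, Gata3 had 8.91 and 3.08 TPM, 2.90-fold lower. Lor, named after its value was seen, had 5.23 and 1.31 TPM, 3.99-fold lower. Of 8 trophoblast genes, another site of Dlx3, 6 reached 1 TPM and all 6 were higher, with a median of 1.89. Of the 8, 5 had 0 reads in E14, and only 1, Tfap2c, reached 10 TPM, in E14-Sox2TA/WT alone. Tfap2c had 2.26 and 19.7 TPM, Elf5 3.07 and 4.04 TPM, and Hand1 0 and 207 reads, at least 71.1-fold higher per library total against a floor of 3 reads. The part of these tissues in the levels of the Dlx genes was not tested.

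**Figure D5:**
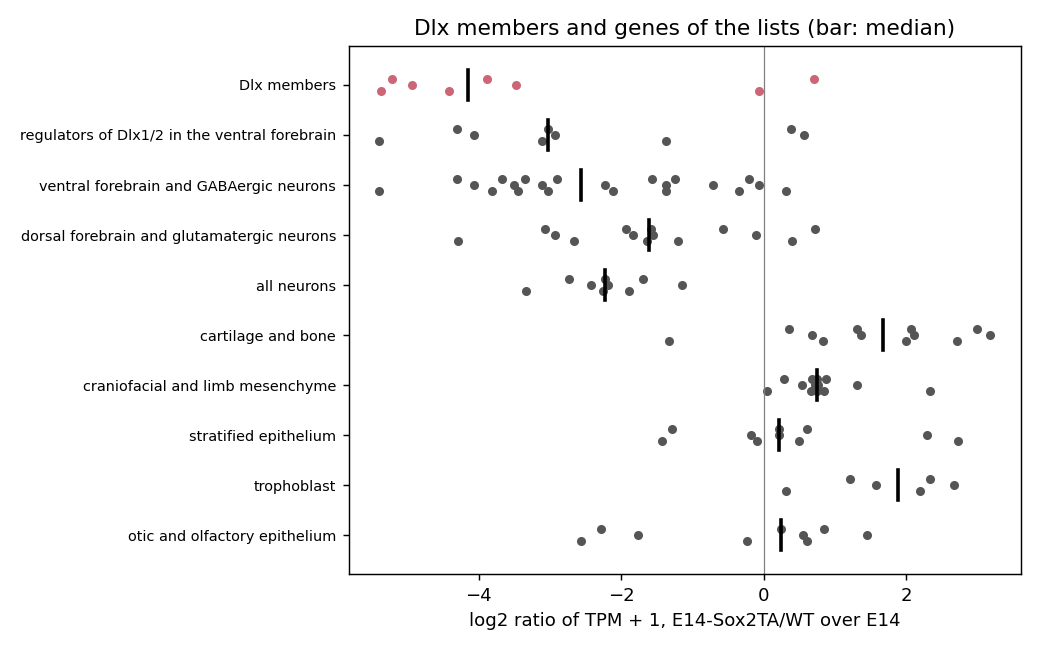
Log2 ratio of TPM + 1 (E14-Sox2TA/WT over E14) of the 8 Dlx members (red) and of the genes of 9 lists that reached 1 TPM (grey), with a bar at each median. Medians run from -4.15 for the Dlx members and -3.03 for the upstream regulators to 1.68 for cartilage and bone and 1.89 for trophoblast.

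The genes nearest to the 4 most abundant members were found by distance in the plane of log2(TPM + 1) of both libraries, which rests on 2 points per gene. Nearest to Dlx1 were Nkx2-1 (distance 0.145), Dlx2 (0.21) and Lhx2 (0.66), and nearest to Dlx2 were Dlx1, Nkx2-1 and Lhx2. Nearest to Dlx5 were the ventral forebrain factor Vax1 (0.23, with 40.2 and 1.46 TPM), Vstm2l (0.24) and the cadherin Cdh8 (0.28). Nearest to Dlx1as were the Y-linked Eif2s3y (0.39, with 46.7 TPM and listed at 0 in E14-Sox2TA/WT), the eye and hypothalamus factor Six6 (0.63) and Nkx2-1 (0.69). The nearest genes to these members thus included other forebrain regulators and, for Dlx1as, also a gene with 0 reads in 1 library.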

How the data were processed

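RNA-seq was made from poly(A) RNA of 1 E14 and 1 E14-Sox2TA/WT teratoma library on a NovaSeq instrument. Per the labels the tissue is teratoma, although the extraction text names an ESC line. The submitters' processing notes name bcl2fastq 2.20.0, Trimmomatic, HISAT2 2.1.0 and StringTie 2.1.3b. Strand use, and whether a count is a read or a read pair, are not given in the sources used here. For each gene the authors deposited the raw read count. Beside it the authors deposited FPKM, which divides by transcript length and depth, and TPM, whose sum is the same in every library. Genes are listed by NCBI identifier on mm10, and 45679 of 45777 matched the RefSeq GRCm38.p6 table, with all 10 Dlx rows among them.

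The log2 ratio was taken with 1 added to each TPM, and folds are ratios of TPM without it. Calls needed a fold above 2 and 10 TPM or more in either library, the rule of the study's methods. It gave 1253 genes higher and 2167 lower here, while the study reports fewer of each for its teratomas. Intervals are 95% Clopper-Pearson intervals of the split of a gene's reads, rescaled to TPM. A count of 0 was given a floor of 3 reads. No p-value was computed, as there is 1 library per group.

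The members and the gene lists were chosen with earlier results of these data known. Named genes were all Dlx rows, Sox2, in each list the 3 highest TPM and the 2 largest log2 ratios among genes that reached 10 TPM, the 2 nearest coding genes on each side of a pair, and the 3 genes most alike to each of 4 members. Genes named in another way are said to be, and some genes that the rule takes are not reported here. Alternatives were FPKM, counts scaled by library total, by TMM factors of edgeR 4.0.16 (R 4.3.3) or by median-of-ratios size factors, pseudocounts of 0.1 and 10, other filters and folds, centring, transcript length, and TPM without mitochondrial and hemoglobin genes. Exons and transcripts are from GENCODE M21. Scripts (matplotlib 3.10.9, scipy 1.17.1, pandas 2.3.3, numpy 2.4.6, Python 3.11.15) were tested on simulated data.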

Additional observations from a re-analysis of the deposited data

How the results depend on the processing

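No paired analysis was possible because each group is a single library, and for the same reason no library could be left out. The count of members more than 2-fold lower was 6 under every scaling and filter tried, and also 6 above 1.5-fold and 3-fold. Above 20-fold it was 6 with TPM, TMM or median-of-ratios scaling and 5 with FPKM or library totals, without Dlx5. The count more than 2-fold higher was 0 with a TPM minimum of 10 and 1, Dlx3, with a minimum of 1 or none. The median of the 8 members, -4.15, was -3.35 with FPKM, -5.08 and -1.96 with pseudocounts of 0.1 and 10, and -3.68 for coding members only. The median of the antisense members, -4.89, was -3.88 with FPKM, -6.66 and -2.19 with pseudocounts of 0.1 and 10, and -4.71 after centring. Each FPKM also had 1 added, which weighs more there because FPKM was lower than TPM for every member. Without it, the fold of Dlx1 was 64.7 with FPKM and 74.3 with TPM, and that of Dlx1as 160 and 183. With a pseudocount of 0.1 list medians were -3.34 for regulators of Dlx1 and Dlx2, -3.04 for ventral forebrain, -2.42 for dorsal forebrain, 2.47 for cartilage and bone, 0.97 for craniofacial and limb mesenchyme and 3.44 for trophoblast. With a TPM minimum of 10 they were -3.07 for ventral forebrain, -1.92 for dorsal forebrain, 1.36 for cartilage and bone, 2.51 for stratified epithelium, 2.67 for trophoblast and -1.0 for otic and olfactory epithelium, where the direction reversed and fewer genes, 2 in place of 9, entered. The log2 ratio of Dlx3 ran from 0.148 to 1.14 over the planned settings, and that of Dlx4 from -0.186 to 0.122, changing sign. Every other member was negative in all planned settings, from -7.08 to -2.59 for Dlx1as and from -4.50 to -1.38 for Dlx6. Counting error is the only error these libraries give.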

Other observations

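Dlx5 and Dlx6 are also active in the otic vesicle and olfactory placode. Of 10 otic and olfactory genes 9 reached 1 TPM, of which 5 were higher and 4 lower in E14-Sox2TA/WT, with a median log2 ratio of 0.24. Otx1 had 11.9 TPM in E14 and 1.19 in E14-Sox2TA/WT and Gbx2 6.63 and 10.2 TPM. Of the 9 genes that mark germ layers and host blood, 3 were lower and 6 higher, with a median of 0.20. Krt8, of simple epithelia, had 118 and 426 TPM, and Lyz2, of macrophages, 457 and 943 TPM.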
